A study of Homo sapiens with 3 samples.

Results

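The genes described here encode proteins of the mitochondrial ribosome, and RNA from their gene intervals was counted after PAR-CLIP of CTCF. CTCF binds DNA through zinc fingers and shapes chromatin loops, and the cells were U2OS, a human osteosarcoma cell line. Members are the listed protein-coding genes whose Ensembl identifier maps to a symbol made of MRPL or MRPS and a number. The rule found 66 members among 12220 listed protein-coding genes and 17201 listed genes of all classes. In PAR-CLIP, cells take up 4-thiouridine, ultraviolet light links that nucleoside to proteins touching the RNA, and RNA that stays attached to the precipitated protein is sequenced. All cells received 400 µM 4-thiouridine for 16 to 24 h and light of 365 nm at 400 mJ/cm2, and CTCF was precipitated from nuclear lysates. The table analysed here is the merge of 2 biological replicates, made with separate lots of 1 anti-CTCF antibody. It has 1 value per gene, so no value below has a replicate error and no test between conditions was possible. No replicate was analysed on its own, and neither an input, a control precipitation nor the abundance of each RNA was analysed here.

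Mitochondria translate a small set of messages for the respiratory chain on ribosomes of their own. The ribosomal RNAs are transcribed inside the organelle, whereas every protein of these ribosomes is encoded in the nucleus, made in the cytosol and imported. The genes counted here are therefore nuclear genes. RNA counted in their intervals can be messenger or precursor RNA for those proteins, or RNA of a gene that overlaps them. Some of the proteins have bacterial homologues, and others, called mitochondria-specific, were acquired in the mitochondrial lineage, with exceptions given below. MRPL stands for the large subunit, which joins amino acids, and MRPS for the small subunit, which decodes the message, with exceptions: in current nomenclature MRPS18A and MRPS30 are placed in the large subunit, and MRPS36 is named KGD4 and is no ribosomal subunit.

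Some promoters of these genes shared short runs of letters. Windows from RefSeq for GRCh38.p14, reaching from 250 bases before to 50 bases after the annotated start, were found for 69 of 77 annotated members. The letters AAGATGGC, which the factor YY1 is known to bind, were searched on both strands and occurred in 20 member windows, or 29.0% (95% Clopper-Pearson interval 18.7 to 41.2%), against 3.91% of 15843 protein-coding promoters. In 15 of these 20 genes (75%) a match lay after the start, against 63.5% of all 619 promoters with the letters, so this position is common wherever the letters occur. The 15 matches lay between bases 7 and 36. All were on the gene's own strand, as were the letters in 87.8% of all promoters that hold them after the start. The letters hold ATG, and whether a match spans a start codon was not examined. Windows of 30 bases are shown for the listed members with the highest counts among those that carry the letters. The matched letters are in capitals (for MRPL32 the reverse complement), and their likeness follows from how the windows were chosen.
MRPS27: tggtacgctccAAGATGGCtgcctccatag
MRPL32: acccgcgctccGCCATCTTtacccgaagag
MRPL22: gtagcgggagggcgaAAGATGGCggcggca
MRPS18A: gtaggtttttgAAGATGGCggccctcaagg
MRPL42: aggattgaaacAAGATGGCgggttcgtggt
MRPS18B: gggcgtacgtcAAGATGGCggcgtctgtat
They come from chr5:72320206-72320235 (minus strand), chr7:42932143-42932172 (plus), chr5:154941093-154941122 (plus), chr6:43687764-43687793 (minus), chr12:93467511-93467540 (plus) and chr6:30617852-30617881 (plus), in the order of the lines. The printed MRPS18A, MRPS18B, MRPL42 and MRPS27 windows each carry the match at 9 to 24 bases past the start.

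The letters CCGGAAG, the core that ETS-family factors bind, were also common. They occurred on one strand or the other in 29 of 69 member windows, or 42.0% (30.2 to 54.5%), against 14.2% of all protein-coding promoters, and in 22 members (31.9%) they lay within 100 bases before the start, against 8.54% of all promoters. Examples from the listed members with the highest counts follow, with the matched letters in capitals. MRPL30 holds them as the reverse complement, and MRPS22 holds them in both orientations.
MRPL30: gggtctgctgcgCTTCCGGgaagtggtcat
MRPL3: ttgtaaaacgcaCCGGAAGtgggtccggcg
MRPS18A: gggcgctacgttCCGGAAGcggaaatggac
MRPS22: atctataagggcCCGGAAGaCTTCCGGccc
These stretches are chr2:99181027-99181056 (plus), chr3:131502986-131503015 (minus), chr6:43687805-43687834 (minus) and chr3:139343895-139343924 (plus) in GRCh38.p14. Either run was present in 41 member windows (59.4%), against 17.2% of all promoters, and both in 8 (11.6%), against 0.903%. In the members, 0 matches of one overlapped a match of the other. With any base in the third place (AANATGGC), 36.2% of member windows matched against 7.92% of all.

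Other letters were near their background. The NRF1 motif, of a factor known for nuclear genes of mitochondrial proteins, was in 11.6% of member windows (5.14 to 21.6%) and 8.58% of all. A core of the CTCF motif was in 3 member windows, or 4.35% (0.906 to 12.2%), against 2.70%. The GC box GGGCGG was in 60.9% against 58.5%, and CCAAT in 29.0% against 36.4%. In all, 7 patterns were searched. Median counts of the listed members were 25 for the 18 with AAGATGGC and 30.5 for the 40 without, and 28.5 for the 24 with CCGGAAG and 31.5 for the 34 without. A match of letters is a description of the window and shows no binding.

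**Figure D1:**
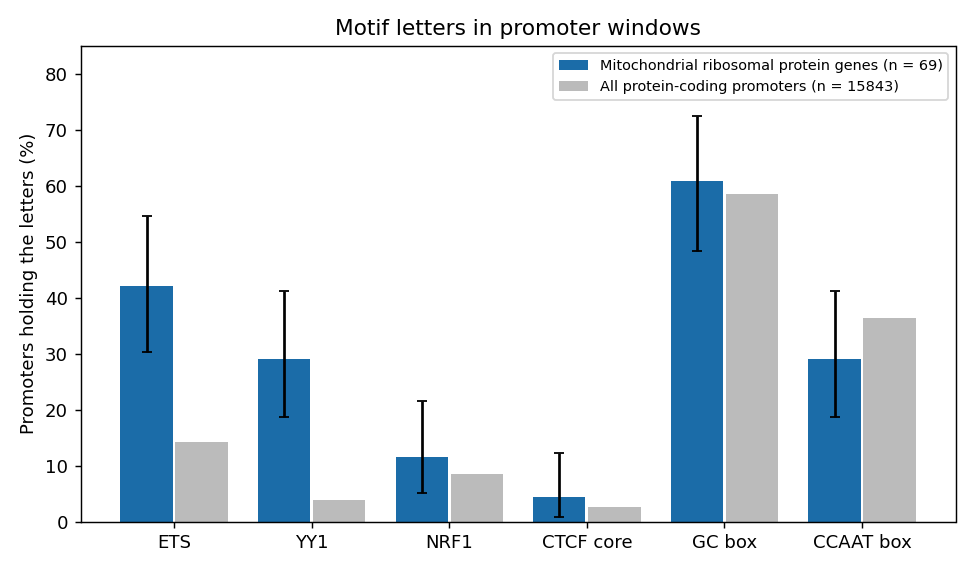
Share of promoter windows (%, y axis) that hold the letters of 6 motifs (x axis), for 69 mitochondrial ribosomal protein genes (blue, with 95% Clopper-Pearson intervals) and 15843 protein-coding promoters (grey). The ETS and YY1 letters stand at 42.0% and 29.0% in the members against 14.2% and 3.91%, and the other 4 intervals include the background share.

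Most annotated members were listed, at modest counts. Of 77 protein-coding genes with such symbols in RefSeq, 65 were listed, or 84.4% (95% Clopper-Pearson interval 74.4 to 91.7%), against 60.2% of all annotated protein-coding genes. With 10 counts or more, the shares were 77.9% and 53.8%. MRPS36 is the 66th member through its older symbol. The 66 members had a median of 29 counts, with quartiles of 16.5 and 61 and a range of 6 to 472, whereas listed protein-coding genes had a median of 43. At 100 counts or more there were 11 members, or 16.7% (8.62 to 27.9%), against 26.1% of listed protein-coding genes. At 50 counts or more the shares were 27.3% of members and 45.7% of listed protein-coding genes. A further 7 had 50 to 99 counts, 28 had 20 to 49, and 20 had fewer than 20. Together the members held 3667 counts, which is 0.322% of the summed protein-coding count (0.311 to 0.332%), while they made up 0.540% of the genes. The interval on the share of counts covers counting error only, and the intervals on shares of genes treat genes as independent draws.

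**Figure D2:**
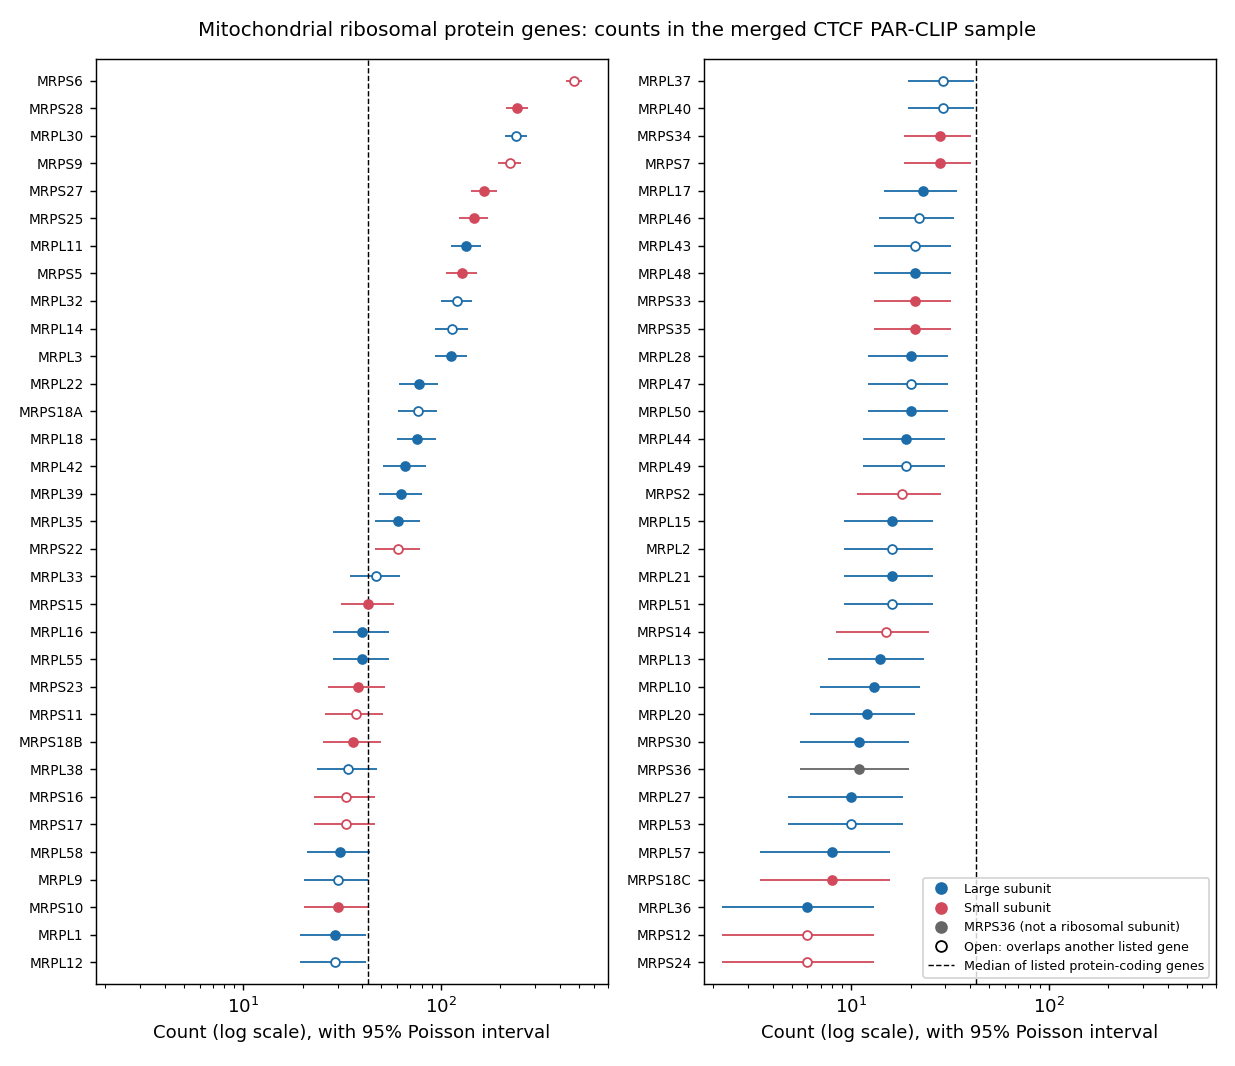
Count of each of the 66 members (x axis, log scale) with its exact 95% Poisson interval, ordered from MRPS6 at 472 to MRPL36, MRPS12 and MRPS24 at 6. Blue marks the large subunit, red the small subunit and grey MRPS36, open circles mark members that overlap another listed gene, and the dashed line is the median of 43 of listed protein-coding genes.

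The members lie in short intervals, and per length the order was the other way round. Their median interval was 8.39 kb, against 30.2 kb for listed protein-coding genes, and 53 of 66 were shorter than that median. Per kb of interval the members had a median of 3.60 counts, against 1.54 for listed protein-coding genes. Across members, which are not independent replicates and share 1 library, count and interval length had a Spearman's rho of 0.495, and across listed protein-coding genes of 0.434. Each protein-coding gene was then placed as a percentile among about 244 genes of similar interval length. By this measure 38 members, or 57.6% (44.8 to 69.7%), were above the median, against 50.1% of listed protein-coding genes. That share is near its background, so the members as a set were not set apart from genes of their own length. At the 90th percentile or higher were 5 members, where 9.96% of listed protein-coding genes stood. Under the 10th percentile were 3 members, where 9.99% stood.

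The listed protein-coding genes were also divided into 4 length classes of 3055 genes. Among genes up to 12.2 kb, the 42 members had a median of 25.5 counts against 20 for the protein-coding genes of the class. Between 12.2 and 30.2 kb, 11 members had a median of 29 against 33. Between 30.2 and 75.3 kb, 8 members had a median of 120.5 against 61. Among longer genes, 5 members had a median of 61 against 98. The members' median was thus higher in 2 classes and lower in the other two.

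**Figure D3:**
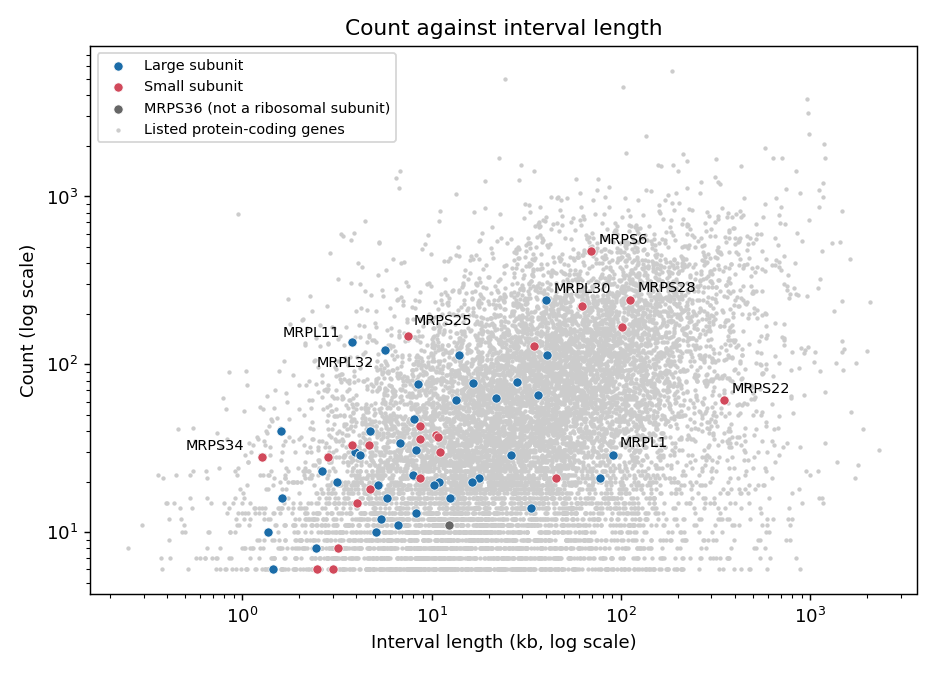
Count (y axis, log scale) against interval length in kb (x axis, log scale) for the 66 members, coloured by subunit, over the 12220 listed protein-coding genes in grey. The members sit inside the grey cloud, mostly at its short end, with MRPL11, MRPL32 and MRPS25 toward the top for their length and MRPL1 low for its length.

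The 10 members with the highest counts held 54.2% of the members' counts. MRPS6, the homologue of a bacterial protein of the small-subunit platform, had 472 counts (95% Poisson interval 430 to 517) over 69.8 kb on chromosome 21 (35445524 to 35515334 in hg19, the build of all count intervals below). It was at the 96.1th percentile for its length. Its interval contains SLC5A3, the gene of a sodium-coupled inositol transporter, which had 384 counts. If a read in SLC5A3 enters both counts, 88 counts remain for the 37.1 kb of MRPS6 outside it, or 2.37 per kb against 6.76 for the whole interval. A further listed gene without a name, a processed transcript with 628 counts, covers 69.4 kb of the same interval. The first place of MRPS6 is thus a count over shared sequence.

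Next came 3 members whose intervals of counting error overlap each other. MRPS28, a small-subunit protein related to bacterial ribosomal protein S1, had 243 counts (213 to 276) over 112 kb on chromosome 8 (80830952 to 80942506). Among genes of its length it stood at the 80.5th percentile, and it overlaps no listed gene. MRPL30 had 240 counts (211 to 272) over 40.3 kb on chromosome 2 (99771461 to 99811761), at the 93.2th percentile. MITD1, a gene for an abscission factor that lies wholly inside, had 132, and if its reads enter both counts 108 are left. Another gene, LIPT1 with 32 counts, shares 8.16 kb. MRPS9, homologue of a bacterial small-subunit protein, had 223 counts (195 to 254) over 62.0 kb on chromosome 2 (105654441 to 105716418). It was at the 85.9th percentile. The antisense gene MRPS9-AS1 inside it had 13 and MRPS9-AS2, which overlaps it by 0.514 kb, had 23.

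MRPS27, a protein of the pentatricopeptide-repeat family, whose members bind RNA, had 166 counts (142 to 193) over 101 kb on chromosome 5 (71515236 to 71616088), at the 71.9th percentile. MRPS5, whose bacterial homologue takes part in decoding accuracy, had 128 counts (107 to 152) over 34.8 kb on chromosome 2 (95752952 to 95787745), at the 82.6th percentile. Neither overlaps a listed gene. MRPL3, which reaches toward the catalytic centre, followed with 113 counts (93.1 to 136) over 40.8 kb, at the 75.2th percentile, also without overlap.

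Shorter genes with high counts stood out per kb. MRPL11, a protein of the region where translation factors dock, had 135 counts (113 to 160) in only 3.77 kb on chromosome 11 (66202546 to 66206319), which is 35.8 per kb and the highest of all members. It was at the 93.5th percentile for its length. MRPS25, a mitochondria-specific protein of the small subunit, had 147 counts (124 to 173) in 7.51 kb on chromosome 3 (15083967 to 15091474), or 19.6 per kb and the 95.7th percentile. Neither gene overlaps a listed one. MRPL32, a large-subunit protein matured by the m-AAA protease in yeast and mouse, had 121 counts (100 to 145) in 5.66 kb on chromosome 7 (42971799 to 42977456). That is 21.4 per kb and the 96.1th percentile, and 0.024 kb is shared with PSMA2, a proteasome subunit gene with 124 counts. MRPL55 had 40 counts (28.6 to 54.5) in 1.60 kb (25 per kb) and MRPS34 had 28 (18.6 to 40.5) in 1.26 kb (22.2 per kb), on chromosomes 1 (228294380 to 228295976) and 16 (1821891 to 1823151) and at the 88.6th and 79.0th percentiles. MRPL14, a protein of the subunit interface, completed the top 10 with 114 counts (94.0 to 137) over 14.0 kb on chromosome 6 (44081194 to 44095194), or 8.14 per kb and the 87.6th percentile.

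The 42 listed large-subunit members had a median of 26 counts (quartiles 16 and 57.5, range 6 to 240), and the 23 small-subunit members had a median of 33 (quartiles 21 and 94.5, range 6 to 472). Per kb the medians were 3.48 and 3.60. Above the median for their length were 23 large-subunit members (54.8%) and 15 small-subunit members (65.2%). At 100 counts or more there were 5 (11.9%) and 6 (26.1%). Without members that overlap another listed gene the medians were 21 counts for 25 large-subunit and 36 for 13 small-subunit members. Of the annotated genes, 42 of 51 in the large subunit and 23 of 26 in the small subunit were listed. Members are not replicates, so these medians carry no test.

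The 26 mitochondria-specific members had a median of 28.5 counts (upper quartile 39.5, range 8 to 166) and 3.08 per kb. The 39 with bacterial homologues had a median of 30 counts (upper quartile 77, range 6 to 472) and 3.72 per kb. The order of the median counts was not stable: without members that overlap another listed gene it turned, with 29.5 counts for 16 mitochondria-specific members and 28.5 for 22 with homologues. It also depended on MRPL55, counted here as mitochondria-specific although RefSeq gives its protein the name bL31m, that of a bacterial homologue. With MRPL55 moved, the medians were 28 and 30 over all members, and 28 and 29 without overlapping ones. At 100 counts or more there were 2 mitochondria-specific members (7.69%) and 9 with homologues (23.1%). In the large subunit alone these were 0 of 18 and 5 of 24. Within the large subunit, 18 mitochondria-specific members had a median of 21.5 counts and a highest count of 77 (MRPS18A). The 24 with homologues had a median of 29 and a highest count of 240 (MRPL30). MRPS18A and MRPS18B are counted as mitochondria-specific, as in their RefSeq protein names mL66 and mS40, although both descend from a bacterial protein. The medians with these genes moved were not computed. Within the small subunit, the medians were 37 for 8 mitochondria-specific members and 33 for 15 with homologues.

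**Figure D4:**
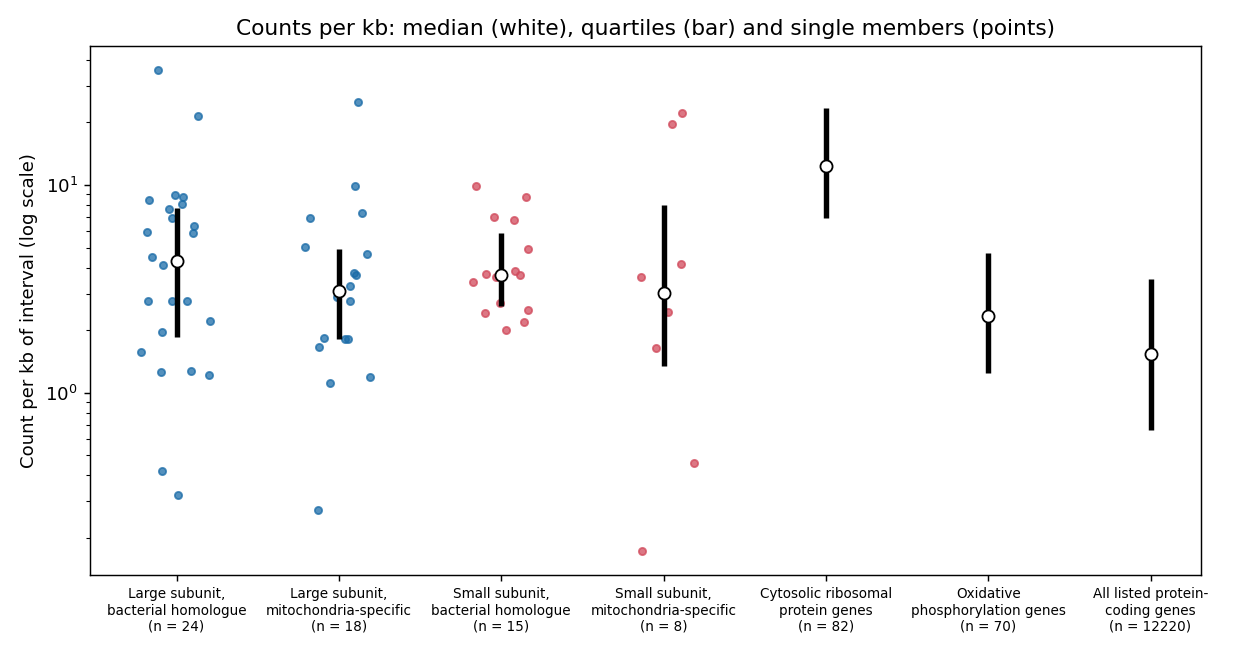
Counts per kb of interval (y axis, log scale) for the 4 groups of members by subunit and origin, with single members as points, and for cytosolic ribosomal protein genes, oxidative phosphorylation genes and all listed protein-coding genes. White circles are medians and bars run from the lower to the upper quartile. The members' medians were 4.33 and 3.08 (large subunit, bacterial homologue and mitochondria-specific) and 3.68 and 3.01 (small subunit, in the same order). They lie between 2.34 for oxidative phosphorylation genes and 12.3 for cytosolic ribosomal protein genes, above 1.54 for all. Interval length is not matched here, and listed protein-coding genes up to 12.2 kb had a median of 3.89 per kb.

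Other members, grouped by what their proteins do after their values were seen, had between 13 and 78 counts. In the factor-recruiting stalk, MRPL12, which also binds the mitochondrial RNA polymerase, had 29 counts and MRPL10, its anchor, had 13 (95% Poisson intervals 19.4 to 41.6 and 6.92 to 22.2). MRPL1 of the opposite stalk had 29 (19.4 to 41.6) over 90.3 kb. At the exit tunnel, MRPL22 had 78. The large-subunit proteins that resemble enzymes had 63 for MRPL39, akin to threonyl-tRNA synthetases, 31 for MRPL58, a peptidyl-tRNA hydrolase, 22 for MRPL46 with a Nudix fold and 19 for MRPL44 with a ribonuclease III fold. Of these enzyme-like members, MRPL39 had the only Poisson interval (48.4 to 80.6) that does not overlap those of the others. It is also the longest, at 21.9 kb, against 8.27 kb for MRPL58, 7.94 for MRPL46 and 10.3 for MRPL44. Per kb MRPL39 had 2.88 counts, MRPL58 3.75, MRPL46 2.77 and MRPL44 1.84, so MRPL39 did not stand apart per length. MRPL18 had 76, MRPL42 66, MRPL35 61, MRPS15 43, MRPL16 40, MRPS23 38, MRPS10 30, MRPS7 28 and MRPL17 23 counts.

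Members of long intervals could be low. MRPS22, a mitochondria-specific small-subunit gene, had 61 counts (46.7 to 78.4) over 351 kb on chromosome 3 (138724648 to 139075888), the longest member interval. At 0.174 per kb it was the lowest member, at the 35.9th percentile for its length. Both values rest on the deposited interval, and whether all 351 kb belong to MRPS22 was not examined. The interval shares 1.45 kb with COPB2, a coatomer gene with 57 counts. MRPL48 had 21 counts (13 to 32.1) over 77.3 kb on chromosome 11 (73498361 to 73575656), or 0.272 per kb and the 17.8th percentile. MRPL1, on chromosome 4 (78783674 to 78873944), had 0.321 per kb and the 19.7th percentile. MRPS35 had 21 counts over 45.5 kb and MRPL13 had 14 over 33.4 kb, at the 17.2th and 10.7th percentiles.

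The lowest members were at the floor of the table, where the order is not resolved. MRPL36, a small zinc-binding protein, MRPS12, whose bacterial homologue is a site of streptomycin resistance, and MRPS24 each had 6 counts (2.20 to 13.1), on chromosomes 5 (1798500 to 1799953), 19 (39421188 to 39423660) and 7 (43906157 to 43909156). MRPL57 and MRPS18C had 8 each (3.45 to 15.8), on chromosomes 13 (21750784 to 21753223) and 4 (84377085 to 84380297). Per kb these 5 genes had 4.13, 2.43, 2.00, 3.28 and 2.49 counts, in intervals of 1.45, 2.47, 3, 2.44 and 3.21 kb. The protein-coding median was 1.54 per kb over all lengths and 3.89 among genes up to 12.2 kb. With a floor of 6 counts, any listed gene in intervals this short stands above 1.54, so that comparison says nothing about them. Among genes of their length they were at the 6.94th, 3.67th, 3.88th, 20.2th and 19.6th percentiles. In all, 11% of listed protein-coding genes had fewer than 10 counts.

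Between these ends, MRPL28, MRPL47 and MRPL50 had 20 counts each, MRPS33 21, MRPL15 and MRPL21 16, MRPL20 12, MRPS30 and MRPS36 11 and MRPL27 10. The 12 annotated members with no row were MRPL4, MRPL19, MRPL23, MRPL24, MRPL34, MRPL41, MRPL45, MRPL52, MRPL54, MRPS21, MRPS26 and MRPS31. The table starts at 6 counts, so each of them had fewer counts, was not among the features counted, or was counted under another identifier, and these cannot be told apart.

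The MRPS18 genes are 3 paralogues that descend from 1 bacterial protein, and their counts differed. MRPS18A, of the large subunit, had 77 counts (60.8 to 96.2) over 16.5 kb on chromosome 6 (43639040 to 43655528). MRPS18B, of the small subunit, had 36 (25.2 to 49.8) over 8.69 kb on chromosome 6 (30585486 to 30594172). MRPS18C, which takes the place of the bacterial protein, had 8. The 3 Poisson intervals do not overlap, but they are intervals on counts over unlike lengths, with 3.21 kb for MRPS18C. No interval was computed per kb, so a difference between the paralogues per length is not resolved here. Per kb MRPS18A had 4.67, MRPS18B 4.14 and MRPS18C 2.49, at the 81.6th, 64.1th and 19.6th percentiles for their lengths.

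Gene copies of members also had counts. There were 9 listed pseudogenes with a member's symbol. Of these, 3 carry the symbol of MRPS31, which has no row itself: MRPS31P4 had 37 counts (26.1 to 51.0), MRPS31P5 24 (15.4 to 35.7) and MRPS31P2 16 (9.15 to 26), all on chromosome 13 and in intervals of 17.7 to 19.9 kb. MRPL3P1 had 15 counts beside 113 for MRPL3, MRPS33P4 13 beside 21 for MRPS33, MRPS18AP1 12 beside 77 for MRPS18A, MRPL32P2 10 beside 121 for MRPL32, MRPS35P3 9 beside 21 for MRPS35 and MRPS18BP2 6 beside 36 for MRPS18B. The sources used here do not say how reads that match several places were assigned, so the division of counts between these genes and their copies is uncertain. In addition, 5 of the 9 pseudogenes (MRPS31P5, MRPS31P2, MRPL3P1, MRPS33P4 and MRPS18AP1) overlap another listed gene, whose reads their counts may hold.

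Overlap with other listed genes touched 27 of 66 members, or 40.9% (29.0 to 53.7%), against 34.7% of listed protein-coding genes. In 14 members the overlap covered at least 50% of the interval, and 8 members lay wholly inside another listed gene. The matching shares of listed protein-coding genes were not computed, so whether these counts are unusual is not known. Over the whole table, 2436 pairs had one interval inside another and the inner gene had the higher count in 0 of them, so reads in shared sequence can enter both counts.

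The 8 enclosed members had fewer counts than their hosts. No inner gene in the whole table had the higher count, so this order is no trait of these members. MRPL2 had 16 inside the kinesin light chain gene KLC4 with 117, and MRPL40 had 29 inside C22orf39 with 258. MRPS24 had 6 inside the read-through gene URGCP-MRPS24 with 120. MRPS16 had 33 inside DNAJC9-AS1 with 52, MRPS17 had 33 inside NIPSNAP2 with 62 (and under an unnamed coding gene with 59 over 73.1% of it), and MRPL49 had 19 inside the ubiquitin ligase gene SYVN1 with 27. MRPS11 had 37 inside an unnamed processed transcript with 65, and MRPS12 6 inside an unnamed coding gene with 30. Unnamed coding genes also covered nearly all of MRPL12 (29 counts, other gene 56) and MRPL38 (34 counts, other gene 35), and the transcript over MRPS11 covered most of MRPL46 (22). CCDC142 with 22 counts covered 97.9% of MRPL53, which had 10. For these members the counts could have come from either gene.

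Elsewhere the shared part was smaller or the member was the larger gene. MRPL43, with 21 counts, contains SEMA4G, a semaphorin gene with 11, which would leave 10 if counted in both, and an antisense gene with 6. MRPL33 had 47 counts and shares 46.8% of its interval with an unnamed gene at 30. MRPL37 had 29 and shares 44.3% with CYB5RL at 6. MRPS2 had 18 and shares 29.9% with an antisense gene at 10. MRPS14 had 15 and shares 23.0% with CACYBP at 159, and MRPL51 had 16 and shares 15.0% with NCAPD2, a condensin gene, at 37. In MRPS18A (RSPH9, 12 counts), MRPL9 (an antisense gene, 7), MRPL14 (TMEM63B, 96), MRPL49 (FAU, 86) and MRPL47 (ACTL6A, 42) the shared part was between 0.757% and 7.87% of the member. The 39 members without any overlap had a median of 28 counts and 2.75 per kb, against 38 and 1.45 for listed protein-coding genes without overlap.

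A listed gene lay within 1000 bases of 20 members without touching them, or 30.3% (19.6 to 42.9%), against 15.1% of listed protein-coding genes. For 13 of these the RefSeq strands place the pair head to head, which is 19.7% of members (10.9 to 31.3%) against 6.05%. These shares were not matched for interval length. MRPL46 and MRPS11 form such a pair of members, 33 bases apart on chromosome 15, with 22 and 37 counts. MRPL18 had 76 counts and its neighbour TCP1, a chaperonin gene, 82. In 7 other pairs the member was the lower: MRPS7 had 28 and GGA3 114, MRPL40 29 and HIRA 229, MRPS18B 36 and PPP1R10 275, MRPL50 20 and ZNF189 63, MRPL57 8 and SKA3 35, MRPS18C 8 and HELQ 47, MRPL27 10 and EME1 19. In MRPL30 with TSGA10 (240 and 68), MRPS27 with PTCD2 (166 and 15) and MRPS35 with MRPS35-DT (21 and 6) the member was the higher. MRPL28 (20 counts) and PGAP6 (33), and MRPS18B (36) and ATAT1 (25), lie on the same strand. The relative strand was not found for the other pairs, among them MRPL10 (13 counts) with LRRC46 at 9, MRPL2 (16) with CUL7 at 102, MRPL21 (16) with IGHMBP2 at 36, MRPL43 (21 counts) with TWNK, the mitochondrial helicase gene, at 55, and MRPL47 (20 counts) with the complex I gene NDUFB5 at 17.

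Members lay on 19 chromosomes. Chromosomes 2 and 17 had 7 each, or 0.832% and 0.990% of the listed protein-coding genes there, chromosome 19 had 1 (0.138%), and the highest share was on chromosome 21, with 2 (1.68%). The 7 members of chromosome 2 held 728 counts, led by MRPL30 and MRPS9, and the 7 of chromosome 17 held 183.

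Cytosolic ribosomal protein genes, which encode the other ribosome of the cell, had higher counts. The 66 mitochondrial members had a median of 29 counts, 3.60 per kb and the 60.3th percentile for length, against 65 counts, 12.3 per kb and the 84.5th percentile for 82 cytosolic ribosomal protein genes. Above the median for length were 57.6% of mitochondrial and 85.4% of cytosolic genes. Cytosolic genes have many processed copies, so their counts may be divided differently. The 70 listed nuclear genes of oxidative phosphorylation had a median of 25.5 counts, 2.34 per kb and the 42.6th percentile. No test of these differences was run.

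Other genes of mitochondrial protein synthesis were counted from lists of known members. Of 5 mitoribosomal proteins with other symbols all were listed, with a median of 18. PTCD3, a pentatricopeptide-repeat protein, had 135. DAP3, a GTP-binding protein, had 6 in an interval of 1.38 kb, and whether that covers the whole gene was not examined. Of 24 assembly factors 19 were listed with a median of 30, from 13 for TRUB2, a pseudouridine synthase, to 128 for FASTKD2, an RNA-binding protein. Of 13 translation factors 12 were listed with a median of 64.5, from 20 for TSFM to 140 for the elongation factor GFM1. Of 19 mitochondrial aminoacyl-tRNA synthetases 17 were listed with a median of 103, from 8 for PARS2 to 376 for NARS2. The list includes GARS1 at 276 and KARS1 at 155, which also encode the cytosolic enzymes. Of 17 genes of mitochondrial transcription and RNA handling 13 were listed with a median of 68, from 19 for SLIRP to 826 for LRPPRC, its RNA-binding partner. Per kb these 5 lists had medians of 4.35, 1.94, 2.60, 2.71 and 3.62, against 3.60 for the members. Above the median for length were 3 of 5, 10 of 19, 7 of 12, 15 of 17 and 9 of 13 genes.

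The whole table summed to 1322047 counts with values between 6 and 6801. Of 12 osteosarcoma and mesenchymal markers 10 were listed: FN1 at 1277 counts, ITGB1 at 1273, CD44 at 632, COL1A1 at 602, SPARC at 260, RUNX2 at 164, VIM at 67, THY1 at 28, PDGFRB at 17 and ALPL at 8. ALPL and PDGFRB were at the 3.07th and 16th percentiles for their length, and COL1A2 and SPP1 had no row. Of 6 blood markers 0 were listed. Of 5 epithelial markers 3 were listed, with KRT8 at 206, KRT18 at 146 and CDH1 at 13, and EPCAM and KRT19 had no row. All 5 neuronal markers were listed, at 6 to 144 counts over intervals of 83.9 to 586 kb.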

How the data were processed

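The deposited table gives whole-number counts per Ensembl gene, which the authors made after merging the sequencing data of both replicates, per the labels. The submitters' processing notes name Bowtie, bedtools and hg19, without versions. The sources used here state neither the event counted, nor the handling of reads with several matches, nor the use of strand. The counts are scaled for neither depth nor length, and they start at 6. No count of 0 is recorded. Interval lengths were taken as deposited, and whether each interval covers exactly its gene was not examined. Counts per kb and percentiles for length share this limit.

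From these counts, exact 95% Poisson intervals, counts per kb of interval and percentiles (share below plus 50% of ties) within 50 length groups were computed with Python 3.11.15, pandas 2.3.3 and SciPy 1.17.1. Overlap means at least 1 shared base. The functions were tested on simulated data. Of 17201 identifiers, 16520 had a symbol. Every member is named; full values are given for the 10 highest and 5 lowest counts, the 5 highest and 3 lowest per kb, and the MRPS18 paralogues. The members and lists were chosen with earlier results of these data known. Motifs, the cytosolic ribosomal and oxidative phosphorylation gene families and the alternative role of MRPL55 were chosen after the counts were seen.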

Additional observations from a re-analysis of the deposited data

How the results depend on the processing

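The members' median of 29 counts stayed between 28 and 30 under each alternative: 10 counts or more, no overlapping genes, nested genes subtracted, and no enclosed members. Subtracting nested genes, leaving out enclosed members, leaving out MRPS36 and moving MRPL55 were chosen after seeing the data. The median per kb ranged from 2.75 without overlapping genes to 3.67 at 10 counts or more. The share above the median for length was 56.1% with 20 length groups and 56.4% without overlapping genes, but 30.3% against 50% without length groups, where short genes are set against long ones. Subtracting the counts of listed genes that lie inside 4 members took the members' sum to 3127. Overlap of at least 50% of the member left 14 members instead of 27. The log2 ratio of the large-subunit to the small-subunit median was -0.34, and it was -0.05 per kb and -0.78 without overlapping genes. The log2 ratio of the mitochondria-specific to the bacterial-homologue median was -0.07, and it was -0.27 per kb but reversed to 0.0498 without overlapping genes. With MRPL55 among the bacterial homologues, an assignment made after the first results were seen, the same 3 ratios were -0.10, -0.39 and -0.05, so the reversal is present under the original list and not under the changed one. Replicates could not be left out in turn, since counts exist here for the merged library alone. No paired analysis was possible because the counts of both replicates come as 1 merged column. The 3 alternatives that need a coding length were not run. Depth limits the members near 6 counts.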
